A study of Mus musculus with 4 samples.

Results

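The HoxC cluster of the mouse holds 9 protein-coding genes, Hoxc13, Hoxc12, Hoxc11, Hoxc10, Hoxc9, Hoxc8, Hoxc6, Hoxc5 and Hoxc4, in this order along chromosome 15. Its open chromatin was read from ATAC-seq, in which a transposase cuts accessible DNA and leaves sequencing adapters there. Mouse embryonic stem (mES) cells were either wt or Hox-/-, and 2 libraries came from each genotype. The series title describes the second genotype as without Hox function, and the labels used here do not say how the genes were changed or how many clones were used. Both genotypes were grown in DMEM with FBS, LIF, the GSK-3 inhibitor CHIR99021 and the MEK inhibitor PD0325901. Nothing in the labels says that replicates were separate cultures, so the spread between them may be technical. The members are the merged called intervals that overlap 102921062 to 103041018 on chromosome 15 (mm10), each given to the HoxC gene it overlaps or else lies nearest to. They number 30 of 208211 merged regions of the 4 peak lists. Both limits of this stretch are themselves ends of peaks in Hox-/- replicate 1, so the lack of Hox-/- peaks between them was used in the choice and is given as a description. Counts are also given for the span of the 9 genes in the gene table (102921131 to 103036856). Its limits come from the annotation, but it lies wholly inside the stretch, so the lack of Hox-/- peaks there follows from the same choice and is not tested.

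Hox genes encode homeodomain transcription factors that give cells of the embryo their position along the head-to-tail axis. In a cluster all genes are read in the same direction, and genes at one end act in the front of the body while genes at the other end act farther back. In embryonic stem cells most Hox genes are known to be held silent by Polycomb proteins on CpG-rich chromatin. HoxC genes act in the neck, trunk and hind part of the skeleton and spinal cord, and Hoxc13, at the tail end, is also known for its role in hair and nails. Between Hoxc12 and Hoxc11 lies Hotair, a long noncoding RNA, and the cluster carries the microRNA genes Mir196a-2 and Mir615.

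A promoter is shown because wt peaks covered it, and a pair of microRNAs because their genes lie in the cluster. The RefSeq promoter table (GRCm38.p6) held 1 of the 9 members, Hoxc4, at chr15:103034145-103034394 on the + strand. These are the 250 bases before the transcription start, of which the wt peaks covered 214 in replicate 1 and all 250 in replicate 2. Capitals mark each CpG.
Hoxc4 promoter: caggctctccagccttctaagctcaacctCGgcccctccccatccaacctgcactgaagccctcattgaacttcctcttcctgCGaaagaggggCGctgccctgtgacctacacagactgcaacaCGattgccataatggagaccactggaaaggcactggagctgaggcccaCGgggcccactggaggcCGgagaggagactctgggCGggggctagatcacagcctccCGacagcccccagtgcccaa

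This stretch held 8 CpGs and was 62% G and C. With the 50 bases after the start it held 9 CpGs in 300 bases, beside a median of 7 over 32817 promoters, and 45.8% of those had as many or more. Short motifs were searched on both strands of the 300 bases, and beside each result stands the share of all promoters in the table with a match. The TATA box TATAAA had 0 matches (13.6% of promoters). AGGNGGC had 0 (29.3%) and AGATGGC had 0 (6.39%), both being parts of the CTCF motif. The homeodomain motif TAATTA had 0 (5.3%), and TGATNNAT, a motif of Hox proteins with their Pbx partners, had 0 (8.86%). CCAAT had 1 match (37.4%), in the 50 bases after the start.

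The main mature microRNAs of the 2 microRNA genes are shown with the seed (bases 2 to 8), which pairs with target RNAs, in capitals.
mmu-miR-196a-5p: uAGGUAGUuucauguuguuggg
mmu-miR-615-3p: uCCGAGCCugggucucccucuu

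The seed of miR-196a-5p was shared by 3 genes in the RefSeq microRNA table, Mir196a-1, Mir196a-2 and Mir196b, and that of miR-615-3p was carried by Mir615 alone. No region overlapped either hairpin. The nearest region called in both wt libraries began 24 bp beyond Mir615 (103014910 to 103015001), inside Hoxc5, and that nearest to Mir196a-2 (102973350 to 102973434) lay 2967 bp away, at the start of Hoxc9.

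A list line is 1 called summit. Replicates 1 and 2 of wt had 213705 and 216795 lines, and those of Hox-/- had 191704 and 200214. They give no read counts. The low end of the background at the peaks, which follows sequencing depth, was 7.46, 7.02, 4.77 and 7.36 in the same order, so Hox-/- replicate 1 was the shallowest. All 6 embryonic stem cell genes checked (Pou5f1, Sox2, Nanog, Zfp42, Esrrb and Klf4) had a peak within 1 kb of a gene end in every library. The same was true of 4 fibroblast genes (Twist1, Prrx1, Col1a2 and Thy1), so peaks at gene ends did not separate these cell types, and the part of other cells was not tested.

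In wt cells the cluster was open at many separate sites. Of the 30 regions, 26 were called in both wt libraries, 3 in replicate 2 alone and 1 in replicate 1 alone. The 2 regions at the limits of the stretch were also called in both Hox-/- libraries, and the other 28 in neither. The 24 regions inside the stretch that both wt libraries called covered 16258 bp, 13.6% of its 120.0 kb. Their widths ran from 277 to 1272 bp with a median of 687 bp, beside a median of 540 bp for all 146769 regions called in both wt libraries. Their best summits differed between the wt libraries by a median of 20.5 bp, and in 16 of 24 regions by at most 25 bp. Neighbouring regions were a median of 4129 bp apart, and the longest gap, 10852 bp, ran from 103016110 to 103026961, from within Hoxc5 into the Hoxc4 gene. Of the 26 regions, 18 overlapped a HoxC gene and the others lay between the genes, except that at the upper limit of the stretch, which lay beyond Hoxc4.

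**Figure D1:**
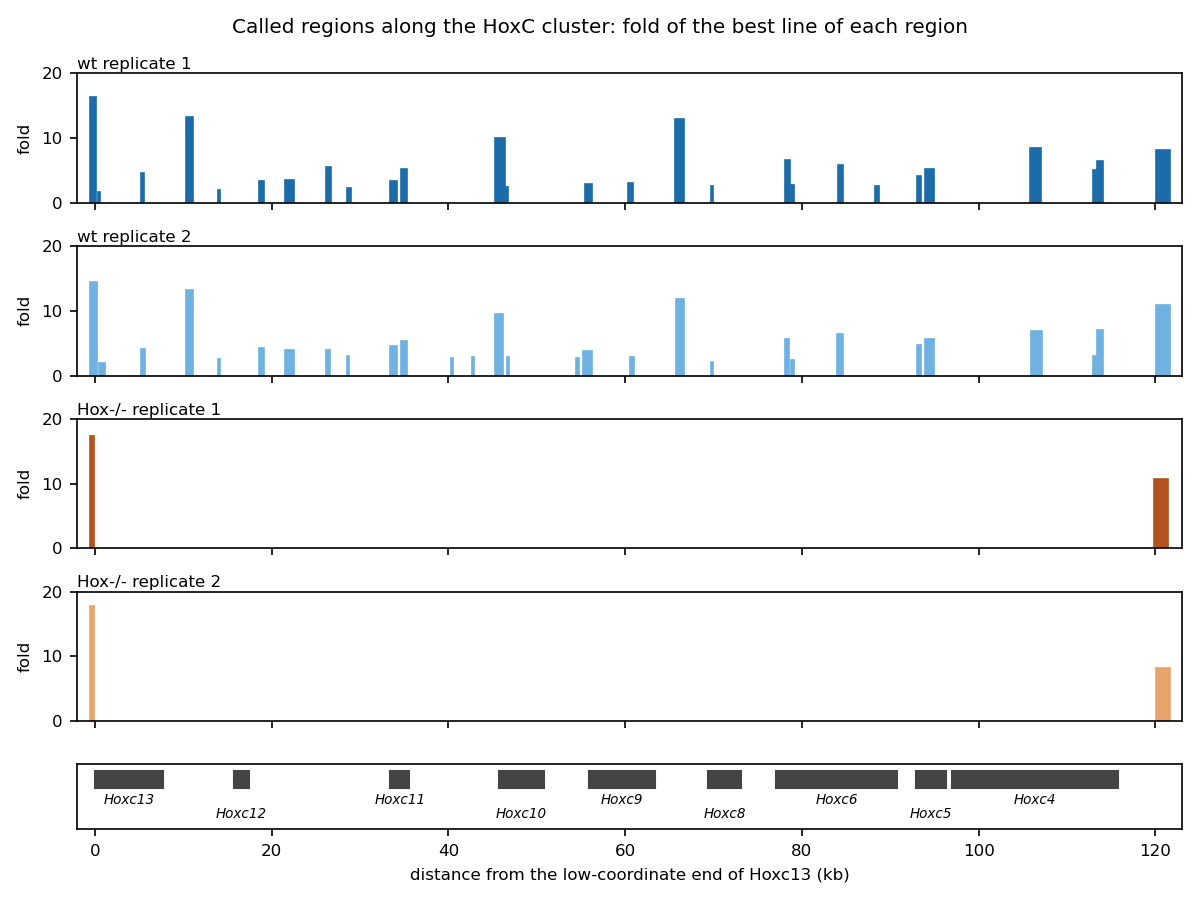
Called regions along the HoxC cluster in each of the 4 libraries, with the distance from the low-coordinate end of Hoxc13 in kb on the horizontal axis and, as bar height, the peak caller's fold over background at the best summit; the lowest panel shows the 9 genes. The 2 wt libraries share 26 of 30 regions, and the Hox-/- libraries show bars only at the 2 limits.

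A pair of sites near Hoxc13 ranked far above the rest of the cluster by −log10 p, though not by fold. A peak's strength was judged by its rank by −log10 p within its own list, where rank 1 is the strongest line. The site between Hoxc13 and Hoxc12, at 102931476 to 102932186, lay 2662 bp beyond the high end of Hoxc13. It ranked 2707 in wt replicate 1 and 2861 in wt replicate 2, with a fold of 13.3 and 13.2 and a −log10 p of 390.0 and 380.9. The fold and p-value imply 530 and 519 overlapping fragments or reads at its summit over a background of 39 and 38.4. Both wt libraries placed the summit within the same few bases, at 102931930 and 102931934. Neither Hox-/- library had a line there.

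The other strong site covered the low-coordinate end of Hoxc13, its start if the gene is read in the + direction as Hoxc4 is. The merged region ran from 102920545 to 102921327. It ranked 1662 and 3579 in wt replicates 1 and 2, with a fold of 16.3 and 14.5 and a summit pileup of 548 and 451. By fold in place of −log10 p it was the strongest HoxC region, at rank 10960 in its worse wt list, against 15347 for the site beyond Hoxc13. By fold the region between Hoxc9 and Hoxc8, at 102986803 to 102987778, came near the latter. Its fold was 13 and 11.8 in wt replicates 1 and 2, at fold ranks of 15161 and 21144, where the site beyond Hoxc13 had 14028 and 15347.

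All other sites ranked lower by −log10 p. Of the 24 regions inside the stretch, 3 had a worse wt rank within 50000, 7 lay between 50000 and 100000 and 14 beyond 100000. Their median was 102697, beside 93221 for all regions called in both wt libraries. Thus 9 of the 24 ranked above the genome-wide median. Apart from the site beyond Hoxc13, those within 50000 were the region at the start of Hoxc10 and one between Hoxc9 and Hoxc8.

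**Figure D2:**
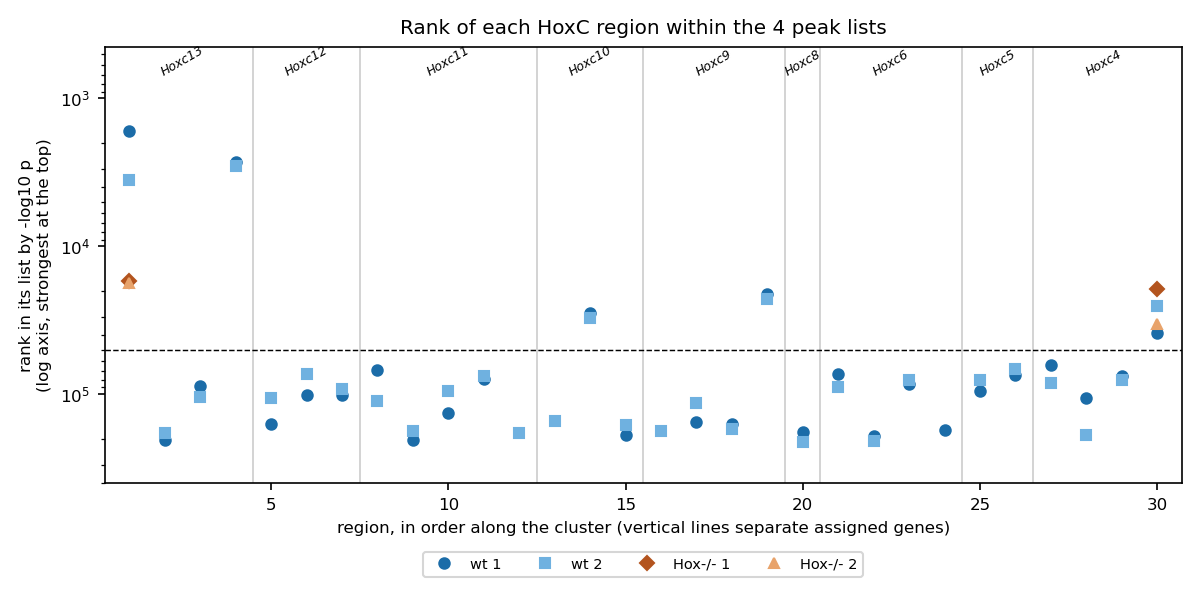
Rank of each of the 30 regions in each list that called it, on a log axis with the strongest at the top; regions are numbered along the cluster and vertical lines separate the genes they were given to. In wt, 2 regions given to Hoxc13 by nearest gene body stand highest with ranks of 1662 to 3579, 5 regions lie above the dashed line at 50000 in both libraries, and Hox-/- points appear only at the first and last region.

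Along the cluster, the genes differed in number and strength of sites. Hoxc13, the gene at the tail end, was given 4 regions by nearest gene body, all called in both wt libraries. By nearest low end, the strong site between Hoxc13 and Hoxc12 goes to Hoxc12, whose low end lay 4640 bp away, which leaves 3 regions for Hoxc13 and gives 4 to Hoxc12. Besides the 2 strong ones, the regions given to Hoxc13 by gene body were a weak region just inside the gene at 102921437 to 102922242, with ranks of 204076 and 182853, and one at 102926372 to 102926750 in the gene body, with ranks of 88289 and 103579.

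Hoxc12 had no region over its body (102936826 to 102938609) and none within 1 kb of it in both wt libraries, the one member without. The 3 regions given to it lay between genes. They were at 102934997 to 102935275, 1551 bp before its low end, at 102939726 to 102940279, 1117 bp beyond its high end, and at 102942591 to 102943621, 441 bp before Hotair. The first ranked 158509 and 106621, the second 100812 and 72877, and the third 101815 and 92333 in wt replicates 1 and 2. The third was listed with 4 and 3 summits.

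Hotair (102944062 to 102947946) was overlapped by 1 region, at 102947317 to 102947820, close to its high-coordinate end. It ranked 68760 in wt replicate 1 and 110535 in wt replicate 2. That region was counted with Hoxc11, whose body it lay 6706 bp away from.

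Hoxc11, a hind-body gene, had 2 regions over its short body (102954526 to 102956701). One covered its low end (102954470 to 102955309), with ranks of 133372 and 94468. The next (102955724 to 102956477), toward the high end, ranked 78976 and 75534. A further region at 102949656 to 102950046 was among the weakest, with ranks of 203696 and 175964.

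At Hoxc10, active in the lumbar region of embryos, the region over the low end was 1168 bp wide (102966392 to 102967559) and the strongest of any that lay at a gene inside the stretch. It ranked 28399 and 30455, with a fold of 10 and 9.48 and summits at 102966601 and 102966609, just before the gene's low end at 102966796. A second region lay 112 bp farther on, at 102967672 to 102967948, and ranked 189186 and 161006.

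At Hoxc9, a gene of the thoracic region, the region over the low end (102976401 to 102977411) was wide and weak, with ranks of 153119 and 114546. A region in the body, at 102981427 to 102982102, ranked 159239 and 170557. The strongest site in the centre of the cluster stood between Hoxc9 and Hoxc8, at 102986803 to 102987778. It ranked 21080 and 22828 with a fold of 13 and 11.8, and its summits at 102987575 and 102987585 were 10 bp apart. It was given to Hoxc9, whose high end was 2359 bp away, while the low end of Hoxc8 was 2761 bp away. When regions were assigned by the nearest low end, it counted with Hoxc8.

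Hoxc8, a thoracic gene too, had a single region, at 102990801 to 102991116, which began 262 bp inside the low end. Its ranks of 180769 and 210237 made it the weakest region of the cluster that both wt libraries called, by the worse rank. The −log10 q there was 5.34 and 2.69, and the lowest in each list was 1.30.

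Hoxc6, Hoxc5 and Hoxc4, the members nearest to the head end, carried sites of middle rank. Hoxc6 had 3 regions called in both wt libraries, all over its body. The first, at 102999154 to 102999826, ranked 73210 and 88628, and the one at 103005066 to 103005772 ranked 85269 and 79505. The region between them, at 102999907 to 103000235, was weak, with ranks of 190137 and 206848.

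Hoxc5 had 2 regions over its body. That at 103014090 to 103014555 began 82 bp inside its low end and ranked 95106 and 79476. That beside Mir615, at 103015025 to 103016109, ranked 73739 and 67514.

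Hoxc4 had 3 regions over its body, which in the gene table reaches from 103018097 to 103036856. Its RefSeq promoter ends farther along, at 103034394. The region at 103026962 to 103028233 was the widest inside the stretch and ranked 63584 and 83801. The promoter whose sequence is given above was covered by the region at 103034042 to 103034396, with ranks of 106078 and 188096, and the fold there was 4.99 and 2.99. The wt libraries differed more at this site than at its neighbour 89 bp farther on (103034486 to 103035183), which ranked 75731 and 79877. The 3 regions over Hoxc4 and the region at the upper limit also overlap a noncoding gene, Gm30528, so signal at Hoxc4 and at Gm30528 cannot be told apart.

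Of the 9 members, 7 had a region called in both wt libraries within 1 kb of the low end in the gene table. Hoxc12 and Hoxc4 did not, and Hoxc4 had one at the start that RefSeq's promoter table gives.

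The background under the peaks was uneven along the cluster in wt. Over the regions from Hoxc13 to Hotair its median was 29.5 in wt replicate 1 and 27.9 in replicate 2, and over the regions from there to Hoxc4 it was 12.5 and 13.6. It peaked at the region 1551 bp before Hoxc12, at 46.6 and 45.5. Only 2.75% and 2.68% of all lines of the 2 lists had a background as high. The gap from this region to the strong site beyond Hoxc13 was 2810 bp. Without a control library the background may hold signal of such nearby sites, so it is not a measure independent of the peaks. It was lowest in the Hoxc4 gene, at 7.46 and 7.02, the low end of each list. A higher background lowers the fold and the −log10 p that a given pileup yields. The region before Hoxc12 had a pileup of 95 and 121 at a fold of 2.02 and 2.62, whereas the region at 103026962 in Hoxc4 had a fold of 8.39 and 6.86 at a pileup of 70 and 54. The order of these 2 regions therefore differs between pileup and fold.

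**Figure D3:**
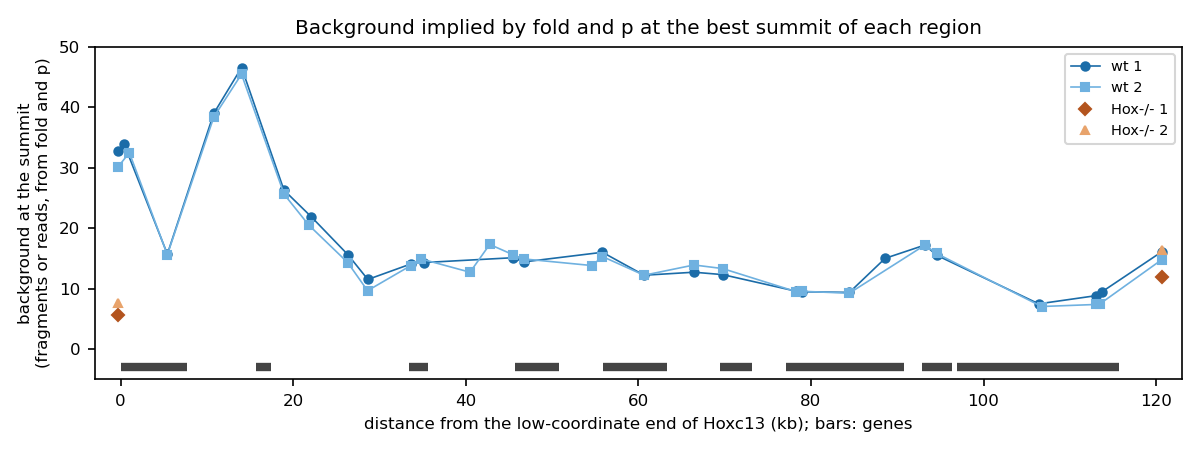
Background implied by fold and p-value at the best summit of each region, against the distance from the low-coordinate end of Hoxc13 in kb; points are regions, lines join the regions of a wt library, and dark bars are the genes. Both wt libraries rise to 46.6 and 45.5 between Hoxc13 and Hoxc12 and fall to 7.46 and 7.02 in Hoxc4, and the Hox-/- points at the Hoxc13 end lie at 5.54 and 7.58.

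In the Hox-/- libraries the called sites of the cluster were missing. In the gene span, the number of listed lines was 46 in wt replicate 1 and 42 in wt replicate 2, and 0 in each Hox-/- library. Means were 44 ± 2.83 (SD, n = 2) for wt and 0 ± 0 (SD, n = 2) for Hox-/-. The difference, Hox-/- minus wt, was −44 and is a description, since the count of 0 follows from the limits of the stretch. A region that is not listed is one that did not pass the caller's threshold, which does not show that no fragments fell there. In a bulk library, fewer cells with an open site and less opening per cell cannot be told apart, and whether the DNA of the cluster is present was not tested.

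Of the 25 regions in the gene span called in both wt libraries, 24 (96%) had no line in either Hox-/- list. Genome-wide, the same was true of 5.44% of regions. Weak regions are missed more often, so the share was also taken by the worse wt rank. Within 50000 it was 3 of 4 in HoxC against 0.058% of 41408 regions genome-wide. Between 50000 and 100000 it was 7 of 7 against 0.232% of 36704. Beyond 100000 it was 14 of 14 against 11.5% of 68657. The genome-wide shares are given as background, and nothing is read from the contrast, because the HoxC regions lie in a stretch bounded by Hox-/- peaks. Hox-/- replicate 1 alone, the shallower library, missed 25.9% of regions of the weakest class genome-wide and replicate 2 missed 19.7%. In the class within 50000, to which the site beyond Hoxc13 belongs, these shares were 0.0628% and 0.0604%.

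**Figure D4:**
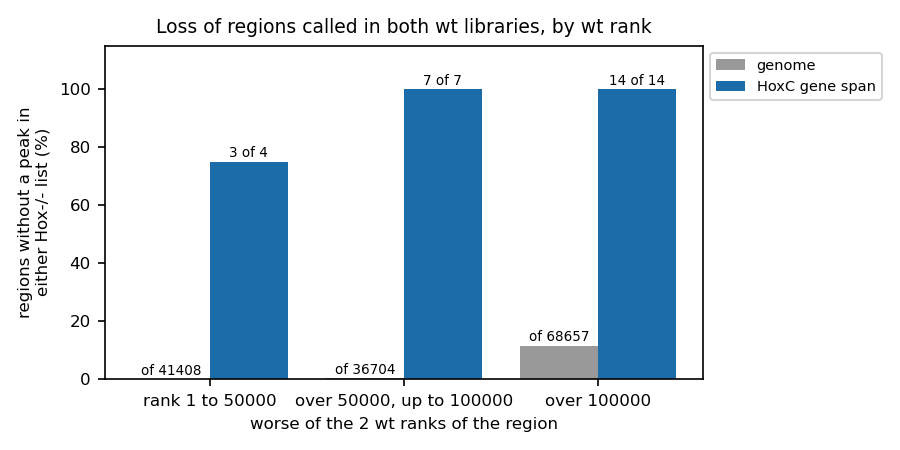
Percent of regions called in both wt libraries that had no line in either Hox-/- list, by the worse of the 2 wt ranks, for the whole genome (grey) and the HoxC gene span (blue), with the number of regions above each bar. The genome bars stand at 0.058%, 0.232% and 11.5%, and the HoxC bars, which follow from the choice of the stretch, at 75%, 100% and 100%.

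By gene, 8 of the 9 members had at least 1 region called in both wt libraries within 1 kb of the body, and for 7 of these none of the regions had a Hox-/- line. This held for 0.604% of the 17372 protein-coding genes with such a region, again given as background alone. Hoxc13 was the exception, with 2 of its 3 regions missing and the one at its low end kept, and Hoxc12 had no region to lose. Of the 30 Hox genes of the other clusters, 29 had a region and 26 had none with a Hox-/- line. Outside the Hox clusters, 5 genes with 2 or more regions showed the same pattern over the 4 libraries. These were Uty (5 regions), Ddx3y (3) and Eif2s3y (2) on chromosome Y, Csn1s2b (2) on chromosome 5 and Foxi1 (2) on chromosome 11. The lists of the genotypes thus also differed at genes of chromosome Y. Whether the cells differed in more than the Hox genes was not tested.

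At the Hoxc13 end, the site was also called in both Hox-/- libraries, with shorter intervals. The wt intervals ended at 102921228 and 102921327, 97 and 196 bp inside the gene. The Hox-/- intervals ended at 102921062 and 102921060, 69 and 71 bp before the gene, so both wt intervals reached at least 166 bp farther. On the other side the 4 intervals began within 16 bp of each other. The 2 Hox-/- ends were 2 bp apart, while the median distance between Hox-/- ends was 22 bp over the 74682 regions listed with 1 line in every library, and 11.2% of those were within 2 bp. The end in Hox-/- replicate 1 is the limit of the stretch, so these ends are a description. As background alone, from which nothing is read, both wt intervals outreached both Hox-/- intervals at this side by 166 bp or more in 0.19% of those regions.

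The summits of the genotypes lay apart as well. They were at 102920818 and 102920812 in wt and at 102920885 and 102920886 in Hox-/-, 67 to 74 bp nearer to Hoxc13. A distance of at least 67 bp between the nearest summits of the genotypes was found in 0.442% of the regions with 1 line per library. The ranks were 1662 and 3579 in wt and 17255 and 17820 in Hox-/-, without overlap, and the best Hox-/- rank was 4.82 times the worse wt rank. Of 41381 regions called in all 4 lists with a worse wt rank within 50000, 0.00725% had a ratio as large. These shares, too, are background to a site that limits the stretch, and nothing is read from them.

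The fold was not lower in Hox-/-. It was 16.3 and 14.5 in wt and 17.3 and 17.8 in Hox-/-. The summit pileup was 548 and 451 in wt and 112 and 152 in Hox-/-, not scaled for depth. The background was 32.7 and 30.1 in wt and 5.54 and 7.58 in Hox-/-, close to the low ends of the Hox-/- lists (4.77 and 7.36). The low ends of the wt lists, which follow depth, were 7.46 and 7.02, and that of Hox-/- replicate 2 lay between them. Pileup and background were thus both lower in Hox-/-, and their ratio was not. No control library is among those used, so the background may itself hold signal of the site and its neighbours. The fold alone therefore does not show that the site was as open in Hox-/- as in wt.

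**Figure D5:**
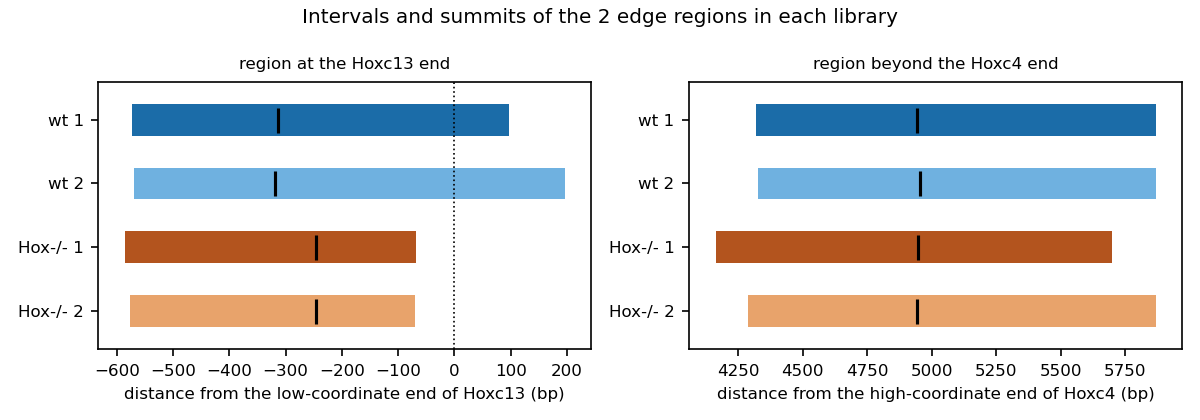
Intervals (bars) and summits (black ticks) of the 2 regions at the limits of the stretch in each library, in bp from the low-coordinate end of Hoxc13 (left, dotted line at 0) and from the high-coordinate end of Hoxc4 (right). On the left the Hox-/- bars end 69 and 71 bp before the gene, and the wt bars end 97 and 196 bp inside it.

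At the other limit, beyond Hoxc4, a site was called in all 4 libraries. The region from 103041018 to 103042723 began 4162 bp beyond the high end of Hoxc4. It ranked 38410 and 25159 in wt and 19494 and 33261 in Hox-/-, so the groups overlapped. The summits of the 4 libraries lay between 103041799 and 103041809. Farther out, 4 regions within 50 kb below the stretch and 7 within 50 kb above it were called in both wt libraries, and each had a line in at least 1 Hox-/- list.

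Beside the other Hox clusters, HoxC in wt was of middle density, with 2.16 regions called in both wt libraries per 10 kb of gene span, against 2.65 in HoxA, 2.01 in HoxB and 2.37 in HoxD. Its best worse wt rank was 2861, while those of HoxA, HoxB and HoxD were 21932, 16638 and 27520. Its regions within 50000 numbered 4 of 25, against 4 of 28, 7 of 35 and 2 of 23. These differences between single clusters were not tested.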

How the data were processed

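ATAC-seq peak lists of 4 libraries, 2 wt and 2 Hox-/-, were analysed, 1 deposited list for each library. The submitters' processing notes name the build mm10 and the tools cutadapt 4.8, Bowtie2 2.5.0, Picard 2.18.2, bedtools 2.30.0, MACS2 2.2.9.1 and deepTools 3.5.4, without parameters. Whether reads were shifted for the transposase is not given in the sources used here. Per line, the deposited lists hold a whole-number score (not used), the summit position, and for the summit a −log10 p, a −log10 q and a fold over local background. These values are the authors' own and served to describe and rank lines of 1 list. In no list did −log10 q fall below 1.30, so weaker sites are not listed.

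Lines of all lists were merged where they overlapped by at least 1 bp, with Python 3.11.15, pandas 2.3.3 and SciPy 1.17.1. A region was called in a library with any line there, and its rank was that of its best line by −log10 p. Coordinates count from 1. Summit pileup and background were solved from fold and p-value under a Poisson model with fold = (pileup + 1) / (background + 1); at least 99.998% of pileups lay within 0.02 of a whole number. The low end of the background is its 0.1% quantile. Gene names and ends came from a RefSeq table (GRCm38.p6, the same build), which gives no strand. Merging and pileups were tested on simulated data. An exact permutation test of the number of lines in the gene span was planned. It is not used, because the gene span lies inside the stretch without Hox-/- peaks. Named genes were the 9 members, noncoding genes in the stretch, the other Hox genes as a family, and at most 5 genes elsewhere with 2 or more regions called in both wt libraries near the body, ordered by the share without a Hox-/- line. The members and lists were chosen with earlier results of these data known.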

Additional observations from a re-analysis of the deposited data

How the results depend on the processing

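Of 30 alternative values for the main results, 4 moved. The direction of the difference in lines is not read as a result, because the stretch was chosen without Hox-/- lines inside it. The other main results are counts or ranks, which have no direction. With only the 100000 strongest lines of each list, 12 HoxC regions were called in both wt libraries and 10 of these in neither Hox-/- library (26 and 24 with every line); fewer lines were used there by construction. The worse wt rank of the strongest HoxC region, 2861, was 10960 by fold, where the region at the low end of Hoxc13 led. It was 1662 to 2861 when 1 wt replicate was left out, and without wt replicate 2 the Hoxc13 end again led. The count of 24 ranged from 24 to 28 when a replicate was left out, and was 24 without the shallow Hox-/- replicate 1. The difference in lines in the gene span was −46 to −42 without 1 replicate. Of 22 further values, 6 moved; among them Hoxc8 had 2 regions in place of 1 when assignment went by low ends or by summits, and the median wt rank of the 26 regions, 101313.5, was 125056.5 by fold. The comparison by fold inside the stretch was chosen after seeing the data. Rank differences between replicates were not shared between the genotypes (correlation of the between-replicate log2 rank ratios of the genotypes over 122787 regions, 0.0036). This does not show whether libraries with the same replicate number were handled together. With the replicate block the difference in lines was −44. The lists give no depth, and the lower depth of Hox-/- replicate 1 limits what its missing weak regions show.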
